A study of Mus musculus with 15 samples.

Results

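Uridine, a pyrimidine nucleoside, is made in the liver among other tissues, carried in the blood and rebuilt into nucleotides. The 8 genes described here code for enzymes that break it down or salvage it: the uridine phosphorylases Upp1 and Upp2, the breakdown enzymes Dpyd, Dpys and Upb1, the uridine and cytidine kinases Uck1 and Uck2, and the cytidine deaminase Cda. They were picked by symbol, and all 8 were among the 15302 genes of the count table. Upp2 was selected on its measured values, as 1 of the largest rises in the GDF15 vs Vehicle comparison, so that comparison is given for the 8 genes as a description with no test.

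RNA from whole liver of 15 wild-type mice was sequenced, with 5 libraries per group. In the GDF15 group, recombinant GDF15, a stress hormone that acts on the hindbrain and lowers food intake, was injected under the skin once a day in the morning at 1 nmol/kg. In the PairFed group, each day's food was limited to the amount that GDF15-treated mice had eaten on the day before. In the Vehicle group, animals carried the vehicle label; whether PairFed mice were injected is not stated. Animals of all 3 groups had eaten a MASH diet since the age of 8 weeks, were kept at about 29°C and were housed singly, so no group shows liver on ordinary food. MASH stands for metabolic dysfunction-associated steatohepatitis, in which fat builds up in the liver together with inflammation. Neither strain nor sex is stated. Numbers given to libraries follow the columns of the count table and are names only.

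A uridine phosphorylase splits uridine into uracil and ribose 1-phosphate. Dihydropyrimidine dehydrogenase (Dpyd) then reduces uracil, dihydropyrimidinase (Dpys) opens its ring, and beta-ureidopropionase (Upb1) releases beta-alanine, ammonia and carbon dioxide. The kinases Uck1 and Uck2 work against this loss by turning uridine and cytidine into nucleotides, and Cda feeds cytidine into the uridine pool. In rodents, uridine phosphorylase activity of liver is known to follow a daily rhythm.

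Upp2 lies on chromosome 2, at chr2:58566317-58795846 of the mouse build GRCm38.p6 (the sequence of mm10), on the plus strand. In the basic coding set of GENCODE M21 it has 5 coding transcripts, 1 of which starts at base 58567387 and 4 of which start between 58754942 and 58755212, which is 187555 to 187825 bases further downstream. The counts are summed per gene, so which start was used in these livers was not measured. Both start regions are shown because Upp2 carries the widest range of values among the 8 genes and its starts differ in composition. Each window holds 250 bases before and 50 bases after a RefSeq start, on the plus strand, and capitals mark the motifs found.
Upp2 window 1, chr2:58567084-58567383: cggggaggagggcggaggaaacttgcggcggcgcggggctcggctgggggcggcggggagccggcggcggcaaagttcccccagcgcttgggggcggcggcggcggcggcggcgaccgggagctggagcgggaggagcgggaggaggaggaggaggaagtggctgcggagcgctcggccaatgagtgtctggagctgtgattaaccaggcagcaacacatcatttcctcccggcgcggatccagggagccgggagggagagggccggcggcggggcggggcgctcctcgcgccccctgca
Upp2 window 2, chr2:58754934-58755233: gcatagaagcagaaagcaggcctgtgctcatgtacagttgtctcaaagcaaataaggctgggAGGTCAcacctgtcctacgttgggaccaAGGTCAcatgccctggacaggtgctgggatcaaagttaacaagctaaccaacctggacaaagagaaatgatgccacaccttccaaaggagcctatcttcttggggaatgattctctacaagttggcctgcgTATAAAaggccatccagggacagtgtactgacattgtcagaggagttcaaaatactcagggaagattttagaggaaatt
Window 1 had a GC content of 75.3% and 37 CpG pairs, against 47.0% and 2 CpG pairs in window 2. The letters AGGTCA, the half-site of many nuclear receptors, stood at positions -188 and -160 from the start of window 2, and TATAAA, the TATA box, at position -29 (first base of the match, with the start at 0). Of the 32851 windows of this kind in the RefSeq table, 16.3% held AGGTCA and 13.6% held TATAAA on either strand. The other letters searched on both strands were not in either Upp2 window: the E-box CACGTG (in 7.15% of all windows), the D-box TTATGTAA (0.938%), the glucocorticoid receptor half-site AGAACA (19.0%), the FoxO site TGTTTAC (3.65%) and the cyclic AMP response element TGACGTCA (1.79%). None of these motifs overlaps another in the windows printed. Of the 8 genes, 7 had at least 1 RefSeq window, 11 windows in all, and AGGTCA was found in windows of Uck2, Upp1 and Upp2.

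Total counts were 8551557 to 10914914 in GDF15 libraries, 10133289 to 12933324 in PairFed libraries and 9228127 to 12994187 in Vehicle libraries. A gap in depth between 10914914 and 12137462 counts left 5 libraries above it, PairFed 2 to 5 and Vehicle 4, and no GDF15 library, so depth moved with the groups. All 8 hepatocyte markers (such as Alb and Ttr) were present, with summed levels of 96697 to 126108 CPM in GDF15 livers, 93551 to 116188 CPM in PairFed livers and 85791 to 106197 CPM in Vehicle livers. CPM (the usual depth-scaled unit of expression) is the share of a gene in the library's total count, here after TMM scaling of the totals. Mean summed levels in GDF15, PairFed and Vehicle livers were 242, 228 and 234 CPM for 5 Kupffer cell markers. They were 84.1, 116 and 89.4 CPM for 5 endothelial markers and 311, 325 and 374 CPM for 5 stellate cell markers. For 4 bile duct markers they were 196, 204 and 307 CPM, and for 5 neutrophil markers 1.78, 1.88 and 2.44 CPM. The 4 T and NK cell markers summed to 1.47 to 2.98 CPM in GDF15 livers, 1.38 to 3.57 CPM in PairFed livers and 2.78 to 7.72 CPM in Vehicle livers, and all 4 were in the table. The 6 markers of recruited monocytes and macrophages summed to 136 to 261 CPM in GDF15 livers, 146 to 221 CPM in PairFed livers and 179 to 296 CPM in Vehicle livers. Most of this was Lyz2, with means of 173 CPM in GDF15, 135 CPM in PairFed and 197 CPM in Vehicle livers. Of these markers Cd8a was 4.09-fold lower in GDF15 than in Vehicle livers (0.411 CPM in GDF15 and 1.71 CPM in Vehicle livers, adjusted p = 0.0172, edgeR) and Ly6c2 2.61-fold lower (0.587 CPM in GDF15 and 1.56 CPM in Vehicle livers, adjusted p = 0.0311), and DESeq2 and limma-voom called both too; neither passed edgeR's test in the other comparisons. Cd8a and Ly6c2 lay near the lowest levels at which genes were tested, with means of 0.854 and 0.900 CPM in PairFed livers. Their higher level in Vehicle livers helped them to be tested at all, so nothing is read from these calls. The part of other cells or of depth in the levels of Upp2 was not tested. In whole tissue, fewer cells of a type and less RNA per cell cannot be told apart.

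Upp2, the uridine phosphorylase found mainly in liver, had 378, 390, 153, 220 and 329 CPM in GDF15 libraries 1 to 5, 137, 277, 172, 139 and 103 CPM in PairFed libraries 1 to 5, and 29.4, 62.5, 16.0, 110 and 65.1 CPM in Vehicle libraries 1 to 5. These values rest on 154 to 3485 counts per library. Every GDF15 value lay above every Vehicle value, whereas PairFed values overlapped both other groups: PairFed 5 lay below Vehicle 4, and PairFed 2 and 3 lay above GDF15 3. The means were 294 ± 103 CPM in GDF15 livers, 166 ± 66.7 CPM in PairFed livers and 56.7 ± 36.7 CPM in Vehicle livers (SD, n = 5 each).

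**Figure D1:**
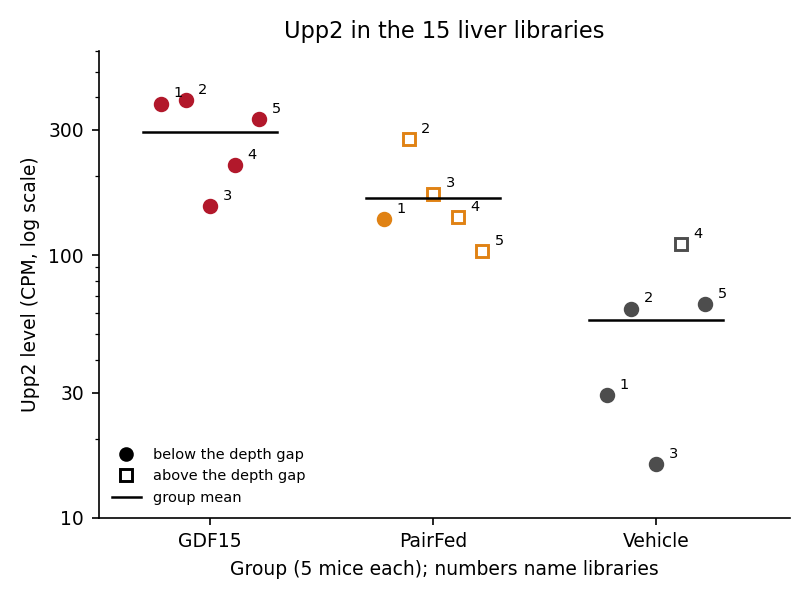
Upp2 level in CPM (log axis) in each of 15 liver libraries by group, with lines at the group means; filled circles are libraries below the gap in total count and open squares are libraries above it. GDF15 libraries lie between 153 and 390 CPM, PairFed libraries between 103 and 277 CPM and Vehicle libraries between 16.0 and 110 CPM.

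In the GDF15 vs Vehicle comparison, by which Upp2 was chosen, its fitted difference was 2.37 ± 0.47 on the log2 scale (SE), a 5.15-fold higher level in GDF15 livers. That was the third highest log2 fold change among 12274 genes tested. In PairFed vs Vehicle, the fitted difference of Upp2 was 1.54 ± 0.46 (SE), or 2.91-fold higher in PairFed livers, with a 95% confidence interval of 0.53 to 2.55. It ranked 13 from the highest of all genes, and its adjusted p was 0.139 by edgeR's quasi-likelihood test with Benjamini-Hochberg adjustment over the 12274 genes. The Wald test of DESeq2 gave 1.55 with an adjusted p of 0.0273 and so placed Upp2 past the 0.05 threshold.

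In GDF15 vs PairFed the amount of food was matched to the day before, while injection, depth and hour of feeding may also differ. The part of these was not tested. Upp2 differed there by 0.83 ± 0.45 on the log2 scale (SE), or 1.77-fold, with an interval of -0.15 to 1.80 and an adjusted p of 0.457 in edgeR's test. The groups overlapped, and the interval takes in both no difference and one larger than the estimate of PairFed vs Vehicle. PairFed vs Vehicle shares its Vehicle libraries, and GDF15 vs PairFed its GDF15 libraries, with the comparison by which Upp2 was chosen. Leaving out each library in turn moved the log2 difference of Upp2 between 1.27 and 1.93 in PairFed vs Vehicle and between 0.70 and 1.09 in GDF15 vs PairFed, without a change of call.

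Values of Upp2 on each side of the gap in total count rest on few libraries. Below the gap, Upp2 had 153 to 390 CPM in the 5 GDF15 libraries, 137 CPM in the only PairFed library and 16.0 to 65.1 CPM in the 4 Vehicle libraries. Above the gap it had 103 to 277 CPM in 4 PairFed libraries and 110 CPM in 1 Vehicle library. With a term for the libraries above the gap, the log2 difference of Upp2 was 1.15 (adjusted p = 0.423, edgeR) in PairFed vs Vehicle and 1.49 (adjusted p = 0.501, edgeR) in GDF15 vs PairFed.

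Upp2 also varied widely between mice of the same group. The SD of its log2 CPM around the group means was 0.77, larger than in 98.5% of all tested genes and larger than in 99.6% of the 500 genes nearest to it in mean level, whose median SD was 0.12. The same measure was 0.47 for Upp1, 0.10 for Dpyd, 0.15 for Dpys, 0.19 for Upb1, 0.21 for Uck1, 0.23 for Uck2 and 0.24 for Cda. Upp1 had 10 to 43 counts per library and Upp2 154 to 3485.

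The breakdown enzymes after Upp2 were abundant and had small differences between groups. Dpyd, the first and rate-limiting enzyme of uracil breakdown (chr3:118562109-119432924, plus strand), had 498, 498, 444, 532 and 426 CPM in GDF15 libraries 1 to 5, 437, 412, 403, 418 and 416 CPM in PairFed libraries 1 to 5, and 353, 378, 390, 333 and 402 CPM in Vehicle libraries 1 to 5. The GDF15 and the PairFed values all lay above the Vehicle values, PairFed 3 only narrowly, and GDF15 5 lay below PairFed 1. The means were 480 ± 43.3 CPM in GDF15 livers, 417 ± 12.5 CPM in PairFed livers and 371 ± 28.3 CPM in Vehicle livers (SD, n = 5 each). Its log2 difference was 0.37 ± 0.07 in GDF15 vs Vehicle (SE), a 1.29-fold higher level in GDF15 livers.

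Outside the comparison used for the choice, Dpyd differed by 0.17 ± 0.07 on the log2 scale in PairFed vs Vehicle (adjusted p = 0.224, edgeR) with an interval of 0.02 to 0.31. In GDF15 vs PairFed it differed by 0.20 ± 0.07 (adjusted p = 0.196, edgeR). With the depth term these became 0.25 (adjusted p = 0.309) and 0.09 (adjusted p = 0.823). Neither passed the threshold, although PairFed and Vehicle values of Dpyd did not overlap. Non-overlap of these groups was found in 3.92% of all tested genes, and Dpyd was the 1 gene of the 8 with it.

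Dpys, which opens the reduced uracil ring (chr15:39768485-39857470, minus strand), had 311, 267, 242, 261 and 255 CPM in GDF15 libraries 1 to 5, 249, 230, 219, 213 and 254 CPM in PairFed libraries 1 to 5, and 216, 251, 204, 292 and 239 CPM in Vehicle libraries 1 to 5. The groups overlapped throughout, and Vehicle 4 held the second highest value of all. The log2 difference of Dpys was 0.15 ± 0.09 in GDF15 vs Vehicle, -0.05 ± 0.09 in PairFed vs Vehicle (adjusted p = 0.840) and 0.20 ± 0.09 in GDF15 vs PairFed (adjusted p = 0.366, edgeR, SE).

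Upb1, the last enzyme of the route (chr10:75406911-75441679, plus strand), had 318, 264, 247, 279 and 222 CPM in GDF15 libraries 1 to 5, 267, 272, 255, 229 and 225 CPM in PairFed libraries 1 to 5, and 182, 267, 193, 255 and 220 CPM in Vehicle libraries 1 to 5. The lowest values were Vehicle 1 and 3, and the groups overlapped. Its log2 difference was 0.25 ± 0.11 in GDF15 vs Vehicle, 0.16 ± 0.11 in PairFed vs Vehicle (adjusted p = 0.476) and 0.09 ± 0.11 in GDF15 vs PairFed (adjusted p = 0.774, edgeR, SE). Upb1 overlaps Gucd1 on the opposite strand, and with the strand setting of the counting not given, reads of the overlap cannot be told apart.

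Upp1, the phosphorylase of most other tissues (chr11:9118008-9136170, plus strand), was barely present: 2.04, 1.15, 2.63, 2.55 and 1.89 CPM in GDF15 libraries 1 to 5, 1.73, 2.86, 1.29, 3.30 and 2.83 CPM in PairFed libraries 1 to 5, and 1.48, 2.82, 2.91, 1.76 and 1.498 CPM in Vehicle libraries 1 to 5. The 3 groups covered nearly the same range. Its log2 difference was -0.01 in GDF15 vs Vehicle, 0.21 ± 0.29 in PairFed vs Vehicle (adjusted p = 0.748) and -0.22 ± 0.29 in GDF15 vs PairFed (adjusted p = 0.805, edgeR, SE).

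The kinases and the deaminase had flat group means. Uck1, the kinase with wide tissue expression (chr2:32255002-32260105, minus strand), averaged 50.2 ± 7.37 CPM in GDF15 livers, 50.2 ± 6.40 CPM in PairFed livers and 55.0 ± 8.42 CPM in Vehicle livers (SD, n = 5 each). Uck2, the kinase known for high levels in dividing cells (chr1:167222895-167285933, minus strand), averaged 8.61 ± 1.17 CPM in GDF15 livers, 8.61 ± 1.67 CPM in PairFed livers and 8.04 ± 1.25 CPM in Vehicle livers. Cda (chr4:138338528-138368311, minus strand) averaged 10.6 ± 1.89 CPM in GDF15 livers, 10.96 ± 1.42 CPM in PairFed livers and 11.5 ± 2.20 CPM in Vehicle livers.

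Single libraries ran from 39.9 to 58.3 CPM in GDF15, 45.3 to 59.7 CPM in PairFed and 43.8 to 63.8 CPM in Vehicle for Uck1, so all 3 groups overlapped. In GDF15 vs Vehicle the log2 difference was -0.13 ± 0.12 for Uck1, 0.10 ± 0.15 for Uck2 and -0.11 ± 0.15 for Cda (SE). In PairFed vs Vehicle they were -0.13 ± 0.12 for Uck1 (adjusted p = 0.606), 0.10 ± 0.15 for Uck2 (adjusted p = 0.763) and -0.06 ± 0.14 for Cda (adjusted p = 0.863, edgeR). Between GDF15 and PairFed livers the difference was -0.00 ± 0.12 for Uck1 (adjusted p = 1.000), -0.01 ± 0.15 for Uck2 (adjusted p = 0.994) and -0.04 ± 0.14 for Cda (adjusted p = 0.929, edgeR). Uck1 overlaps Pomt1 on the opposite strand, with the same limit as for Upb1.

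**Figure D2:**
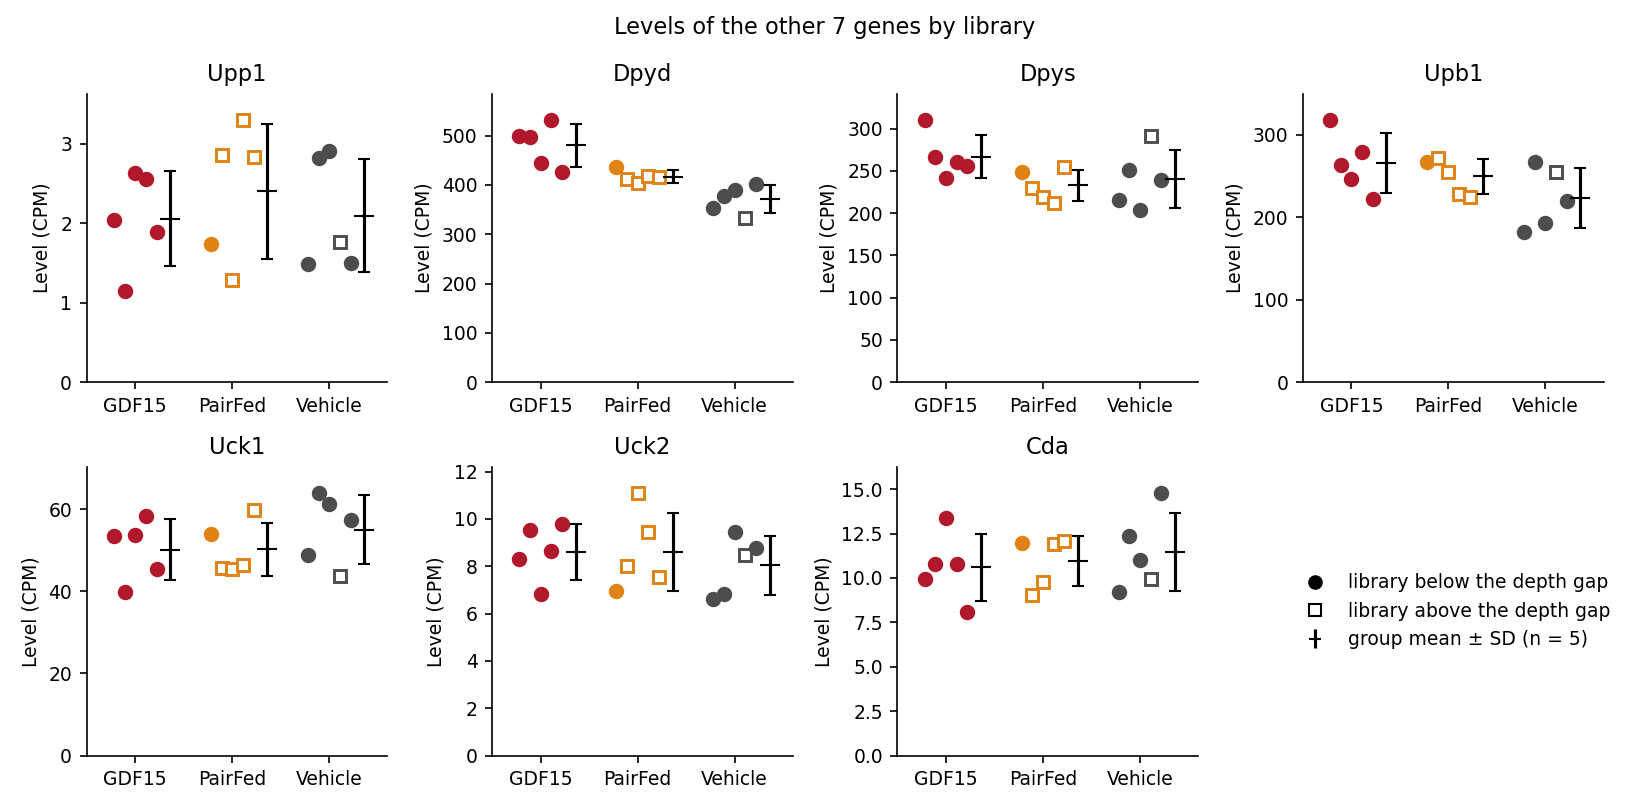
Levels in CPM of Upp1, Dpyd, Dpys, Upb1, Uck1, Uck2 and Cda in each library by group, with bars for the group mean ± SD (n = 5); circles are libraries below the gap in total count and squares are libraries above it. Dpyd is the 1 gene of the 7 in which all GDF15 libraries (426 to 532 CPM) lie above all Vehicle libraries (333 to 402 CPM). GDF15 and Vehicle values did not overlap in 3.99% of all tested genes. Nothing is read from this separation, since GDF15 vs Vehicle is the comparison used for the choice.

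Counted over the 8 genes, the GDF15 and Vehicle values of Upp2 and Dpyd did not overlap, as was the case for 3.99% of all tested genes; from this count nothing is read, since the comparison chose Upp2. edgeR's test called 2.9% of all genes in GDF15 vs Vehicle, and no outcome of it is given for the 8. In PairFed vs Vehicle 0 of the 8 passed edgeR's test, against 0.285% of all genes. There 2 of the 8, Upp2 and Dpyd, had an unadjusted p below 0.05, as had 16.9% of all genes. DESeq2 called Upp2 (2.76% of all genes), and limma-voom called none of the 8 (0.326% of all genes). In GDF15 vs PairFed 0 of the 8 passed edgeR's test, against 0.782% of all genes. There 2 of the 8, Dpyd and Dpys, had an unadjusted p below 0.05, as had 13.3% of all genes. Neither DESeq2 (2.03% of all genes) nor limma-voom (0.611% of all genes) called any of the 8. No gene of the 8 had non-overlapping groups in GDF15 vs PairFed, against 2.86% of all tested genes. The median log2 difference of the 8 genes was 0.12 in GDF15 vs Vehicle, 0.13 in PairFed vs Vehicle and 0.05 in GDF15 vs PairFed, while the median of all tested genes was 0.00 in size in each.

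**Figure D3:**
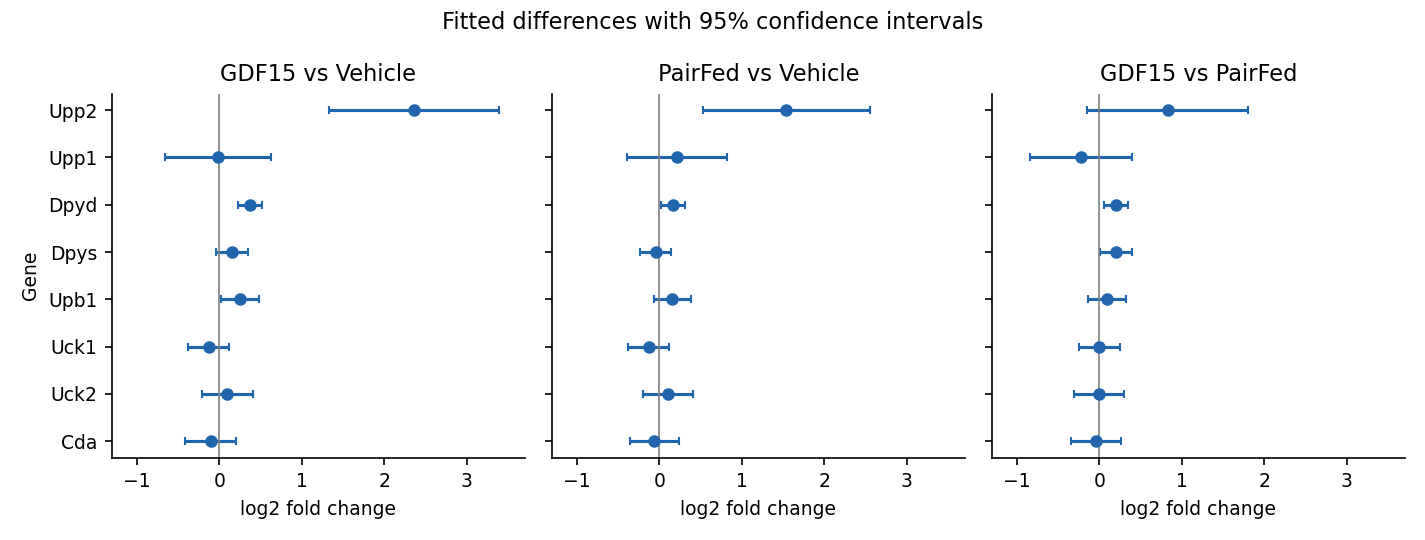
Fitted log2 fold changes of the 8 genes in the 3 comparisons; points are estimates and bars 95% confidence intervals from edgeR's fit to 15 libraries. Upp2 stands at 2.37, 1.54 and 0.83 from left to right, and the other 7 genes lie between -0.22 and 0.37. Upp2 was chosen by GDF15 vs Vehicle, so the bars of that comparison are a description and not a test. The bar of Upp2 there makes no allowance for the choice.

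Levels of different genes were compared per kilobase of coding-transcript length (CPM per kb, over the median length of GENCODE M21 basic coding transcripts). In GDF15 livers the order was Dpyd at 191 ± 17.3, Upp2 at 137 ± 48.0, Dpys at 117 ± 11.4, Upb1 at 87.4 ± 11.9, Uck1 at 25.0 ± 3.68, Cda at 12.5 ± 2.24, Uck2 at 1.82 ± 0.25 and Upp1 at 1.64 ± 0.48 CPM per kb (SD, n = 5). Upp2 there did not stand apart from Dpys beyond its spread, nor Uck2 from Upp1. In PairFed livers Upp2, at 77.0 ± 31.0 CPM per kb, had rank 4 of the 8, next to Upb1 at 82.0 ± 7.11. In Vehicle livers Upp2, at 26.4 ± 17.1 CPM per kb, had rank 5, next to Uck1 at 27.4 ± 4.20, while Dpyd, Dpys and Upb1 kept the first 3 places at 148, 105 and 73.5 CPM per kb. Upp2 is thus the gene of the 8 whose place in the order changed most between the groups, and this place follows from the comparison that chose it.

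Deviations from the group means were compared between the 8 genes over 15 libraries, which gives 28 pairs of genes. Dpys and Upb1, consecutive enzymes of the route, had Pearson's r of 0.71 (permutation p = 0.0131) and Spearman's rho of 0.67 (permutation p = 0.0236). Upp2 had r of 0.67 with Dpys (permutation p = 0.0296, rho 0.61) and 0.65 with Upb1 (permutation p = 0.0342, rho 0.61). Pairs outside the route had similar values. Upp1 and Uck1 had r of 0.57 (permutation p = 0.0423) and rho of 0.61 (permutation p = 0.0285). Uck1 and Cda had r of 0.53 (permutation p = 0.0687) and rho of 0.60 (permutation p = 0.0329). Dpyd, within the route, had r of -0.18 with Upp2, -0.03 with Dpys and 0.27 with Upb1. After adjustment over the 28 pairs no pair passed, the lowest adjusted permutation p being 0.296 for r and 0.271 for rho. Without the 2 libraries farthest from the median, r was 0.56 for Dpys and Upb1, 0.35 for Upp2 and Dpys, and 0.55 for Upp2 and Upb1.

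Around the 8 genes, 8 lists of pyrimidine pathway genes with 57 genes were counted, 52 of them tested. In GDF15 vs Vehicle 2 of the 52 were higher in GDF15 livers and 0 lower, namely Slc29a1 and Gne, while edgeR called 2.9% of all genes. At an unadjusted p below 0.05 there were 12 of the 52 in GDF15 vs Vehicle (16.7% of all genes), 13 in PairFed vs Vehicle (16.9% of all genes) and 13 in GDF15 vs PairFed (13.3% of all genes). In PairFed vs Vehicle 0 of the 52 passed edgeR's test, against 0.285% of all genes. There 1, Cad, was called by DESeq2 (2.76% of all genes) and by limma-voom (0.326% of all genes). Against PairFed livers 1 of the 52, Slc29a1, was higher in GDF15 livers, against 0.782% of all genes called in either direction. DESeq2 called 4 of the 52 in GDF15 vs Vehicle (5.23% of all genes) and 4 in GDF15 vs PairFed (2.03% of all genes). Of the 52, limma-voom called 2 in GDF15 vs Vehicle (2.47% of all genes) and 0 in GDF15 vs PairFed (0.611% of all genes). The median log2 difference of the 52 genes was -0.03 in GDF15 vs Vehicle, 0.01 in PairFed vs Vehicle and 0.00 in GDF15 vs PairFed.

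Slc29a1 codes for the equilibrative transporter ENT1, which moves uridine and other nucleosides across the cell membrane. It had 350, 309, 244, 254 and 240 CPM in GDF15 libraries 1 to 5, 219, 204, 156, 165 and 190 CPM in PairFed libraries 1 to 5, and 139, 205, 165, 175 and 203 CPM in Vehicle libraries 1 to 5. All GDF15 values lay above all values of both other groups, which overlapped each other. Slc29a1 was 1.58-fold higher in GDF15 than in Vehicle livers (log2 difference 0.66 ± 0.13 SE, adjusted p = 0.0121, edgeR) and 1.49-fold higher in GDF15 than in PairFed livers (0.58 ± 0.13 SE, adjusted p = 0.0479), and its PairFed vs Vehicle difference was 0.08 (adjusted p = 0.804). The call against PairFed livers is borderline: it was lost in 16 of 24 alternatives. Among these were leaving out any 1 of 11 libraries (GDF15 1, 2 and 4, PairFed 2 to 5 and Vehicle 2 to 5), with adjusted p-values of up to 0.141. It was also lost with limma-voom and with the depth term (log2 difference 0.46, adjusted p = 0.501, edgeR). The call against Vehicle livers held without each library in turn and was lost in the 10 libraries below the depth gap, with a log2 difference of 0.65 and an adjusted p of 0.0596. The other 3 tested transporters passed in no comparison by edgeR.

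The 5 genes of pyrimidine synthesis, such as Cad, Dhodh and Umps, passed in no comparison by edgeR. Cad, which starts the synthesis route, is named here after its values were seen. It had 16.5 ± 3.13 CPM in GDF15 livers, 13.8 ± 2.50 CPM in PairFed livers and 21.1 ± 2.99 CPM in Vehicle livers (SD, n = 5 each). PairFed and Vehicle values did not overlap, as was the case for 3.92% of all tested genes. The log2 difference of Cad was -0.36 in GDF15 vs Vehicle (adjusted p = 0.173) and 0.27 in GDF15 vs PairFed (adjusted p = 0.413, edgeR). Its log2 difference in PairFed vs Vehicle was -0.62 ± 0.13 (SE) with an adjusted p of 0.0560 by edgeR, 0.00423 by DESeq2 and 0.0369 by limma-voom. Cad passed edgeR's threshold without GDF15 3, PairFed 1 or Vehicle 5 (adjusted p of 0.0187 to 0.156 over all libraries left out in turn), with upper-quartile factors and with the 10 CPM filter. Its difference was -0.46 (adjusted p = 0.309, edgeR) with the depth term and -0.25 (adjusted p = 0.991, edgeR) in the libraries below the gap. By edgeR, the 9 tested genes of salvage and nucleotide kinases, the 10 nucleotidases and diphosphatases, the 4 genes of beta-amino acid breakdown, the 8 genes of ribose phosphate handling and the 4 receptors for UDP and UTP passed in no comparison.

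The list of 8 genes of UDP-sugar metabolism held Gne, which does not make a UDP-sugar but uses one (UDP-N-acetylglucosamine) in the first step of sialic acid synthesis. Gne had 182 ± 22.0 CPM in GDF15 livers, 137 ± 11.2 CPM in PairFed livers and 112 ± 18.9 CPM in Vehicle livers (SD, n = 5 each). It was 1.63-fold higher in GDF15 than in Vehicle livers (log2 difference 0.70 ± 0.11 SE, adjusted p = 0.00199, edgeR), with adjusted p-values of up to 0.00943 over 24 alternatives. Its difference was 0.30 in PairFed vs Vehicle (adjusted p = 0.169) and 0.41 in GDF15 vs PairFed (adjusted p = 0.0837). Gne was also among the 8 genes most like Upp2 over the same libraries (r = 0.95). Its call against Vehicle livers is therefore not independent of the choice of Upp2. For comparison with purines, 11 genes of purine breakdown and salvage were tested. Of these, 1 passed edgeR's test in GDF15 vs Vehicle, against 2.9% of all genes. It was Adk, the adenosine kinase (677 ± 36.7 CPM in GDF15 livers and 579 ± 9.93 CPM in Vehicle livers, 1.17-fold, adjusted p = 0.0427, edgeR). That call of Adk was lost in 15 of 24 alternatives, 10 of which left out 1 library (GDF15 1, 2 and 4, PairFed 4 and 5 and Vehicle 1 to 5), with adjusted p-values of up to 0.121. DESeq2 called 2 of the 11 in GDF15 vs Vehicle (5.23% of all genes), Adk among them. In GDF15 vs PairFed it called 1, Adk (2.03% of all genes).

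The genes whose levels followed Upp2 most closely over the 15 libraries were ranked by Pearson's r of log2 CPM among 11247 genes, as a description with no test; the points share their libraries and the groups' differences. They were Etnk2 (r = 0.97), Mtss1 (0.97), Mpzl2 (0.96), Slc7a2 (0.95), Gne (0.95), Por (0.95), Slc38a4 (0.95) and Per1 (0.94). With the group means taken out, r was 0.92 for Etnk2, 0.90 for Mtss1, 0.86 for Mpzl2, 0.85 for Slc7a2, 0.93 for Gne, 0.87 for Por, 0.81 for Slc38a4 and 0.84 for Per1; since the 8 were picked on r over the same libraries, these values are part of that choice. Of the 11247 genes, 2.01% had r of at least 0.8 over the 15 libraries and 1.12% had it within groups, and the median r was 0.01 by both measures. Without the 2 libraries farthest from the median of Upp2, Vehicle 1 and 3, r of the 8 genes was 0.89 to 0.95.

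Etnk2, an ethanolamine kinase of phospholipid synthesis, had 604, 474, 281, 364 and 416 CPM in GDF15 libraries 1 to 5, 283, 406, 311, 311 and 262 CPM in PairFed libraries 1 to 5, and 178, 225, 115, 246 and 222 CPM in Vehicle libraries 1 to 5. The lowest library of each group in Upp2 was also its lowest in Etnk2. The amino acid transporters Slc7a2 and Slc38a4 averaged 543 ± 142 and 1251 ± 136 CPM in GDF15 livers, 440 ± 77.1 and 1089 ± 83.4 CPM in PairFed livers, and 255 ± 48.0 and 814 ± 117 CPM in Vehicle livers (SD, n = 5 each). Por, the electron donor of microsomal cytochrome P450 enzymes, averaged 324 ± 109 CPM in GDF15 livers, 264 ± 46.7 CPM in PairFed livers and 142 ± 45.1 CPM in Vehicle livers. In all 8 genes the group means kept the order of Upp2, highest in GDF15 and lowest in Vehicle livers. Since the 8 were picked on r with Upp2 over the same libraries, this order is part of that choice and nothing is read from it.

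**Figure D4:**
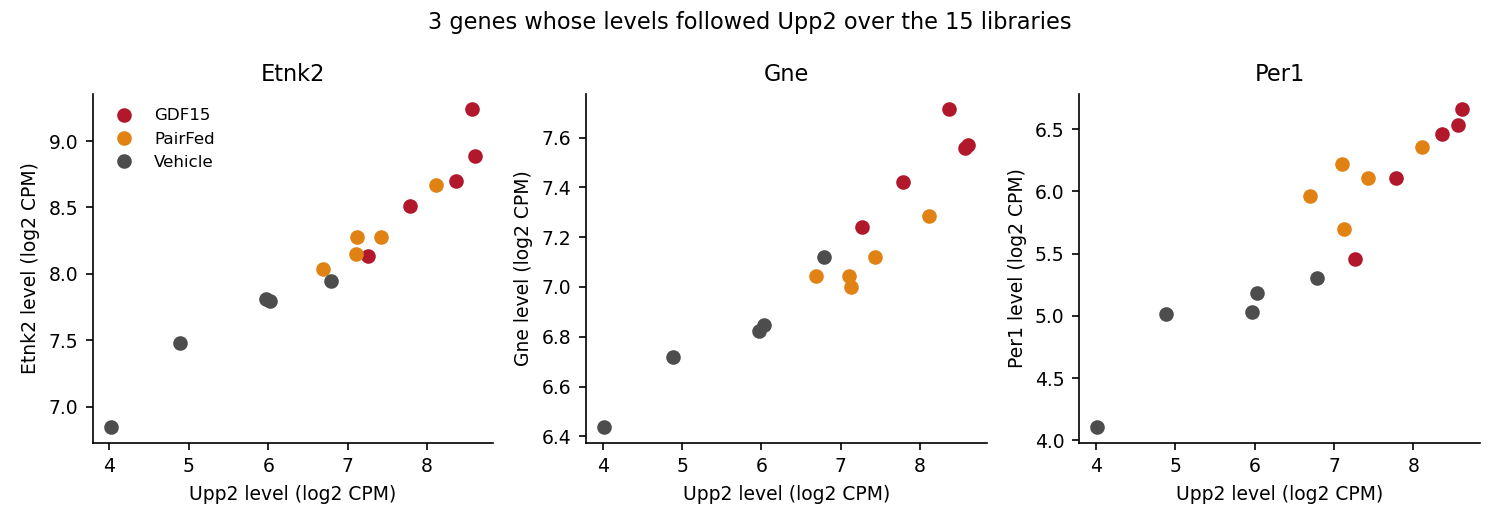
Log2 CPM of Etnk2, Gne and Per1 against log2 CPM of Upp2, 1 point per library, coloured by group. All 3 genes are higher in libraries with more Upp2, with r of 0.97 for Etnk2, 0.95 for Gne and 0.94 for Per1 over 15 libraries, and 0.92, 0.93 and 0.84 within groups.

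Per1 belongs to the circadian clock, the feedback loop of transcription factors that gives liver genes a daily rhythm, and the 17 clock genes listed were therefore set beside Upp2. Within groups, r with Upp2 was 0.87 for Nr1d2, 0.84 for Per1 and for Cry2, 0.80 for Tef, 0.79 for Per3, 0.77 for Hlf and 0.75 for Dbp. It was -0.70 for Arntl, -0.78 for Npas2 and -0.69 for Cry1, so clock genes stood on both sides of 0. Nr1d1 (0.27), Nfil3 (0.05) and Clock (-0.28) showed weak r. These r values are descriptions over 15 libraries that share groups and depth.

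**Figure D5:**
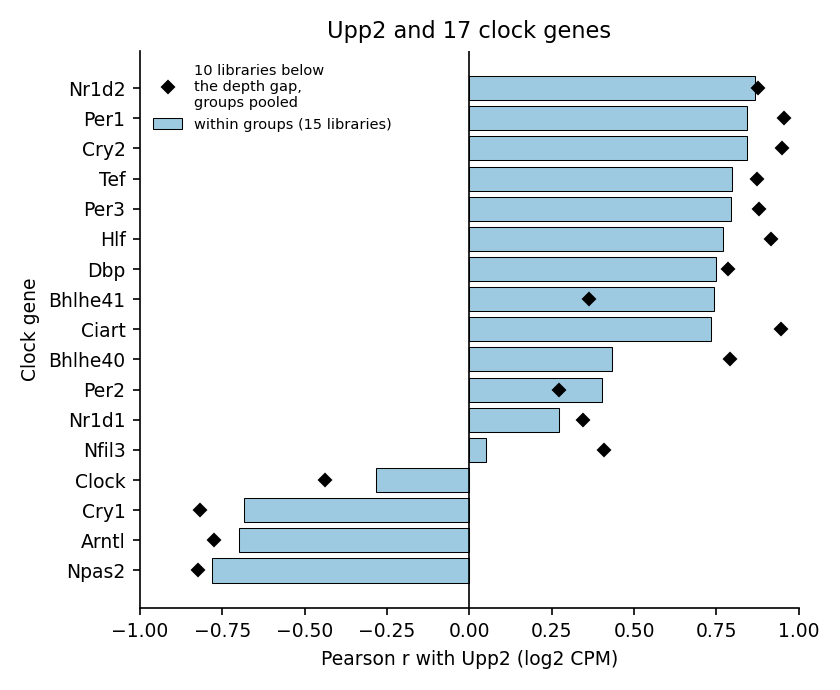
Pearson's r of log2 CPM between Upp2 and each of 17 clock genes; bars are r of deviations from the group means over 15 libraries and diamonds are r over the 10 libraries below the depth gap with the groups pooled. Nr1d2, Per1 and Cry2 stand at 0.84 to 0.87 and Arntl, Cry1 and Npas2 at -0.69 to -0.78.

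Some of the clock genes themselves differed between groups. Upp2 was chosen by GDF15 vs Vehicle, and Per1 by its likeness to Upp2 over the same libraries. Over the 15 libraries r with Upp2 was 0.94 for Per1, 0.92 for Cry2 and 0.91 for Ciart. Their calls in that comparison are therefore not independent of the choice. In GDF15 vs Vehicle, 3 of the 17 passed edgeR's test (2.9% of all genes), all higher in GDF15 livers: Per1 with 78.8 ± 22.9 CPM in GDF15 livers and 31.4 ± 8.57 CPM in Vehicle livers (2.49-fold, adjusted p = 0.0121), Cry2 with 44.8 ± 5.30 CPM in GDF15 livers and 32.6 ± 4.11 CPM in Vehicle livers (1.37-fold, adjusted p = 0.0161), and Ciart with 13.7 ± 6.89 CPM in GDF15 livers and 2.34 ± 1.54 CPM in Vehicle livers (5.52-fold, adjusted p = 0.0279; SD, n = 5). The call of Per1 was lost in the 10 libraries below the depth gap (log2 difference 1.41, adjusted p = 0.0703). The call of Cry2 was lost without GDF15 2 (adjusted p = 0.0601), and that of Ciart without any 1 of 7 libraries (GDF15 1, 2 and 5 and Vehicle 1, 2, 3 and 5; adjusted p up to 0.0777) and with limma-voom (adjusted p = 0.106). In PairFed vs Vehicle 0 of the 17 passed edgeR's test (0.285% of all genes), while 11 had an unadjusted p below 0.05 (16.9% of all genes), DESeq2 called 6 (2.76% of all genes) and limma-voom 0 (0.326% of all genes). The median log2 difference of the 17 was 0.44 in GDF15 vs Vehicle, 0.39 in PairFed vs Vehicle and 0.06 in GDF15 vs PairFed.

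In GDF15 vs PairFed 1 of the 17 passed edgeR's test (0.782% of all genes), while DESeq2 called 1 (2.03%) and limma-voom 0 (0.611%). Bhlhe41, a repressor of the clock, was 3.77-fold lower in GDF15 than in PairFed livers (adjusted p = 0.0344, edgeR). It had 1.73 ± 0.28 CPM in GDF15, 6.54 ± 2.56 CPM in PairFed and 2.44 ± 1.71 CPM in Vehicle livers (SD, n = 5 each). Its log2 difference was -0.54 in GDF15 vs Vehicle (adjusted p = 0.564) and 1.37 in PairFed vs Vehicle (adjusted p = 0.0913, edgeR). The call against PairFed livers was lost without any 1 of 10 libraries (GDF15 1 to 5, PairFed 2 to 5 and Vehicle 5), with adjusted p-values of up to 0.0999. The depth term left a log2 difference of -0.62 (adjusted p = 0.624, edgeR). The hour at which each liver was taken is not stated, and the part of collection time or feeding time in the levels of Upp2 was not tested.

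The neighbours of Upp2 on the chromosome did not pass the test in any comparison by edgeR. Acvr1, a receptor gene on the opposite strand, overlaps with its 5′ end the start of the RefSeq span of Upp2 (base 58566317). The span of Acvr1 ends at base 58566828, before the first coding transcript start of Upp2 in GENCODE M21 (58567387). Acvr1 averaged 13.97 CPM in GDF15 livers, 14.39 CPM in PairFed livers and 14.96 CPM in Vehicle livers. Its adjusted p-values by edgeR were 0.669 in GDF15 vs Vehicle, 0.818 in PairFed vs Vehicle and 0.890 in GDF15 vs PairFed. Pkp4, the second gene after Upp2, averaged 112 CPM in GDF15 livers, 113 CPM in PairFed livers and 103 CPM in Vehicle livers. Ccdc148, which starts 25851 bases after the end of Upp2, and Cytip had 2.09 to 3.01 CPM in the group means. Acvr1c had 13 counts over all libraries and was not tested.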

How the data were processed

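Liver RNA of 15 mice was sequenced from directional libraries, per the labels' protocols. The submitters' processing notes name Salmon, DESeq2 and the build mm10, with no version. The deposited values are estimated counts per gene symbol in whole numbers, taken here to be Salmon estimates rounded by the authors; transcript set and strand setting: not given in the sources used here. Columns were assigned to groups by name, and no column could be tied to an animal.

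Genes were kept with filterByExpr of edgeR 4.0.16 in R 4.3.3 (count 10, total 15), which left 12274, and scaled with TMM. The quasi-likelihood test of edgeR, with its robust option, was fitted to all 15 libraries, with Benjamini-Hochberg adjustment over the genes tested and a threshold of 0.05. Correlations used log2 CPM with a prior count of 2. Likeness was ranked over genes whose mean log2 CPM reached 1. Permutation p-values of the pairs of genes used 100000 resamples, two-sided. The code was tested on simulated data.

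Alternatives were DESeq2 1.42.0 size factors or Wald test, upper-quartile factors, no filter, 10 CPM in 5 libraries, limma-voom (limma 3.58.1), a fit of the groups compared, a depth term and leaving out each library. A fit of the 10 libraries below the depth gap was chosen after the data were seen.

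The 8 genes, the pathway, clock and cell type lists and the alternatives were chosen with earlier results of these data known. Named genes are the 8, pathway list genes past the threshold in at least 1 comparison (up to 4 a list), the 8 most like Upp2 and the nearest 2 genes of the table on each side of Upp2; Cad, Cd8a, Ly6c2 and the clock genes given only by their r with Upp2 were named after their values were seen. Positions are from RefSeq for GRCm38.p6, which 15289 of 15302 symbols matched, and promoter windows are from RefSeq of the same build. Motifs were searched as exact letters on both strands. 1 gene of the clock list is not reported here.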

Additional observations from a re-analysis of the deposited data

How the results depend on the processing

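Upp2 kept its direction in all 3 comparisons under all 24 alternatives. In the 2 comparisons with a test it kept its side of the threshold except with the DESeq2 Wald test, which called it in PairFed vs Vehicle (1.55, adjusted p = 0.0273). The log2 difference of Upp2 without each library in turn was 2.13 to 2.76 in GDF15 vs Vehicle. The number of genes called in GDF15 vs Vehicle, 356 in edgeR's fit, was 642 with DESeq2's Wald test, 194 in the fit of the groups compared, 151 in the libraries below the depth gap and 134 to 476 without each library in turn. In PairFed vs Vehicle it was 35, against 339 with DESeq2's Wald test, 0 with the depth term, 0 below the gap and 0 to 135 without each library. In GDF15 vs PairFed it was 96, against 249 with DESeq2's Wald test, 9 with the depth term, 0 below the gap and 21 to 171 without each library. At an unadjusted p below 0.05, edgeR's fit of all libraries had 2045 genes in GDF15 vs Vehicle, 2076 in PairFed vs Vehicle and 1636 in GDF15 vs PairFed.

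Differences of the other 7 genes that changed sign in PairFed vs Vehicle or GDF15 vs PairFed had not passed the threshold. Below the gap, PairFed vs Vehicle was -0.33 for Upp1, 0.13 for Dpys, -0.19 for Uck2 and 0.010 for Cda, and GDF15 vs PairFed was 0.25 for Upp1, -0.0070 for Upb1 and 0.31 for Uck2. With the depth term, PairFed vs Vehicle was 0.037 for Uck1, -0.040 for Uck2 and 0.061 for Cda, and GDF15 vs PairFed was 0.19 for Uck2. Uck1 in GDF15 vs PairFed was 0.0017 with DESeq2 size factors and 0.0014 with its Wald test. Without each library in turn, PairFed vs Vehicle ran from -0.11 to 0.028 for Dpys, -0.0055 to 0.17 for Uck2 and -0.13 to 0.044 for Cda, and GDF15 vs PairFed from -0.058 to 0.072 for Uck1, -0.069 to 0.10 for Uck2 and -0.14 to 0.042 for Cda. The cause of these moves was not tested. The fit below the gap holds 1 PairFed library, which is assumed to vary like the others, and depth and group cannot be told apart fully, as no GDF15 library lies above the gap. The filter of 10 CPM left out Upp1 and Uck2. No paired analysis was possible because no label pairs mice across the groups.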
